A study of Homo sapiens with 6 samples.

Results

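The Prp19 complex, also abbreviated NTC, is a set of proteins that joins the spliceosome when it is activated. The results below concern the mRNA levels of 10 of its listed subunits in neuroblastoma cells after knockdown of one of them. The subunits are *PRPF19*, *CDC5L*, *PLRG1*, *BCAS2*, *CTNNBL1*, *CWC15*, *XAB2*, *CRNKL1*, *AQR* and *ISY1*. They were taken by name from the 58735 genes listed in each library as subunits of the complex, by a rule that uses no measured value, although earlier results of these data were known when they were listed. Each of the 10 was found, and each passed the filter on low values that left 13718 genes to be tested.

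Total RNA was extracted from SK-N-AS, an established neuroblastoma line of human origin, and libraries made from it were sequenced (RNA-seq). Cells of the siPrp19 group had received a small interfering RNA (siRNA) that targets Prp19, cells of the NC group had received a negative control siRNA, and both were otherwise the same unmodified line. Transfection lasted 72 h per the labels, while a shorter time stands in the methods. Knockdown by siRNA is transient and acts in those cells that take up the siRNA, so each library is an average over cells that may differ in Prp19. The level of a gene is given as FPKM, fragments counted per kilobase of all its annotated exons at a common library size. This allows genes of different length to be compared only roughly.

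Splicing removes introns from pre-mRNA in a pair of cutting and joining reactions. The Prp19 complex enters after the U4 small nuclear RNA has left, and it holds the catalytic RNA core in its active form. Prp19 itself is a U-box ubiquitin ligase, and the complex is known to act in DNA damage signalling as well. Its subunits bind each other tightly, and loss of one protein can destabilise its partners, which RNA levels do not show.

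For 2 of the 6 libraries, the labels contradict each other. Each deposited file holds a single value column, and the column name matches the description of a sample. In 4 files this sample and the one of the record were not the same. The column NCb is in a file recorded under a siPrp19 sample, and the column siPrp19b is in a file recorded under an NC sample. Libraries are called here by their column names. The main comparison set NCa, NCb and NCc against siPrp19a, siPrp19b and siPrp19c, which is the comparison by column name. It is given beside a comparison of the 4 libraries whose column name and record give the same group (NCa and NCc against siPrp19a and siPrp19c) and beside one of all 6 libraries as recorded.

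Reads counted on genes, as recovered from the FPKM values, ranged from 14887132 in NCb to 19977811 in siPrp19c. Mitochondrial genes took 8.29% of these reads in siPrp19a and 5.15% to 5.49% in the other libraries. The methods describe biological replicates, but NCa and NCb differed from each other by a chi-square per degree of freedom of 1.74 and siPrp19b and siPrp19c by 2.82, whereas the other 13 pairs of libraries differed by 21.0 to 55.2. Whether the libraries of a close pair are separate cultures is not known. If they are not, the sample sizes, SDs, intervals and p-values below overstate the replication. Of 8 sympathoadrenal markers of neuroblastoma, 7 were above 1 FPKM on average, with *HAND2* at 117 to 170 FPKM and *TH* at 0.312 to 0.662 FPKM. Their summed level, of which *HAND2* was the largest part, was 258 to 285 FPKM in the NC columns and 216 to 230 FPKM in the siPrp19 columns. Of 5 mesenchymal markers, 4 were above 1 FPKM, with sums of 186 to 211 FPKM and 141 to 164 FPKM. The largest part of these was *VIM*, at 125 to 162 FPKM and 99.4 to 116 FPKM. Such sums follow their highest genes and do not show a fall of each marker. Of 5 markers of other cell types, 2 were above 1 FPKM, the leukocyte gene *PTPRC* and the epithelial gene *KRT18*, with sums of all 5 of 69.3 to 77.3 FPKM and 58.3 to 59.5 FPKM. *PTPRC* was at 24.9 to 30.7 FPKM in the NC columns and 16.9 to 20.4 FPKM in the siPrp19 columns. *KRT18* was at 37.6 to 51.6 FPKM and 38.1 to 41.1 FPKM. Of the same 5 markers, *CD3E* of T cells was listed at 0 in each library. *EPCAM* of epithelium did not exceed 0.176 FPKM and *PECAM1* of endothelium did not exceed 0.982 FPKM. The part of these shifts in the results below was not tested.

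The siRNA target was examined first. *PRPF19* (ENSG00000110107, minus strand of chromosome 11, from 60890730 to 60906588 on hg38) encodes the ligase that gives the complex its name and that forms its tetrameric core. Its level was 83.0 FPKM in NCa, 83.1 FPKM in NCb and 93.0 FPKM in NCc. It was 19.6 FPKM in siPrp19a, 19.1 FPKM in siPrp19b and 18.5 FPKM in siPrp19c. Every NC column was thus above every siPrp19 column, by a wide gap, and NCb and siPrp19b went with their column names and against the samples they are recorded under. These values rest on 3355 to 4383 reads in the NC columns and 850 to 1064 reads in the siPrp19 columns.

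The mean of *PRPF19* was 86.4 ± 5.78 FPKM in NC and 19.1 ± 0.573 FPKM in siPrp19 (SD, n = 3 each), which is 77.9% lower. On the log2(FPKM + 1) scale it fell by 2.12 (SE 0.07, 95% interval -2.30 to -1.94, limma, Benjamini-Hochberg adjusted p = 0.000215). It had the smallest p of the 13718 genes tested. With the close pairs of libraries averaged, the log2 fold change of *PRPF19* was -2.14 (limma adjusted p = 0.0265). In the comparison of 4 libraries, *PRPF19* fell by 2.15 (95% interval -2.48 to -1.81, limma adjusted p = 0.0266). That call was lost in limma without NCa (adjusted p = 0.113), without NCc (0.242), without the filter on low values (0.286) and with a replicate block (0.0894), while the log2 fold change stayed between -2.23 and -1.99 over all 11 alternatives. As recorded, where each group held a library at the level of the other, the log2 fold change was -0.74 with a 95% interval from -2.45 to 0.96 (limma adjusted p = 1.00). In bulk RNA, fewer cells with *PRPF19* mRNA and less of it per cell cannot be told apart.

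*PRPF19* was the only one of the 10 subunits that passed an adjusted p of 0.05 in the comparison by column name, in which 5.37% of all tested genes were called lower and 2.57% higher. The other 9 had adjusted p-values from 0.130 to 0.984 in limma. Their log2 fold changes ran from -0.30 to 0.16, 6 below and 3 above 0, and their median was -0.11 against -0.02 for all genes tested. The 95% intervals of these 9 together spanned -0.55 to 0.40, so a change of the size seen in *PRPF19* lay outside each of them. In the comparison of 4 libraries 0.0146% of all genes were called, and *PRPF19* was again the 1 subunit among them, with adjusted p-values from 0.517 to 0.983 for the others. As recorded, limma called 0 of the 13718 genes (0%, with 191 at an unadjusted p under 0.05, and 0 calls with voom) and none of the 10 subunits. The median log2 fold change of the 9 others was -0.023 with 4 libraries, against -0.024 for all genes tested. As recorded it was 0.016, against -0.011 for all genes.

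**Figure D1:**
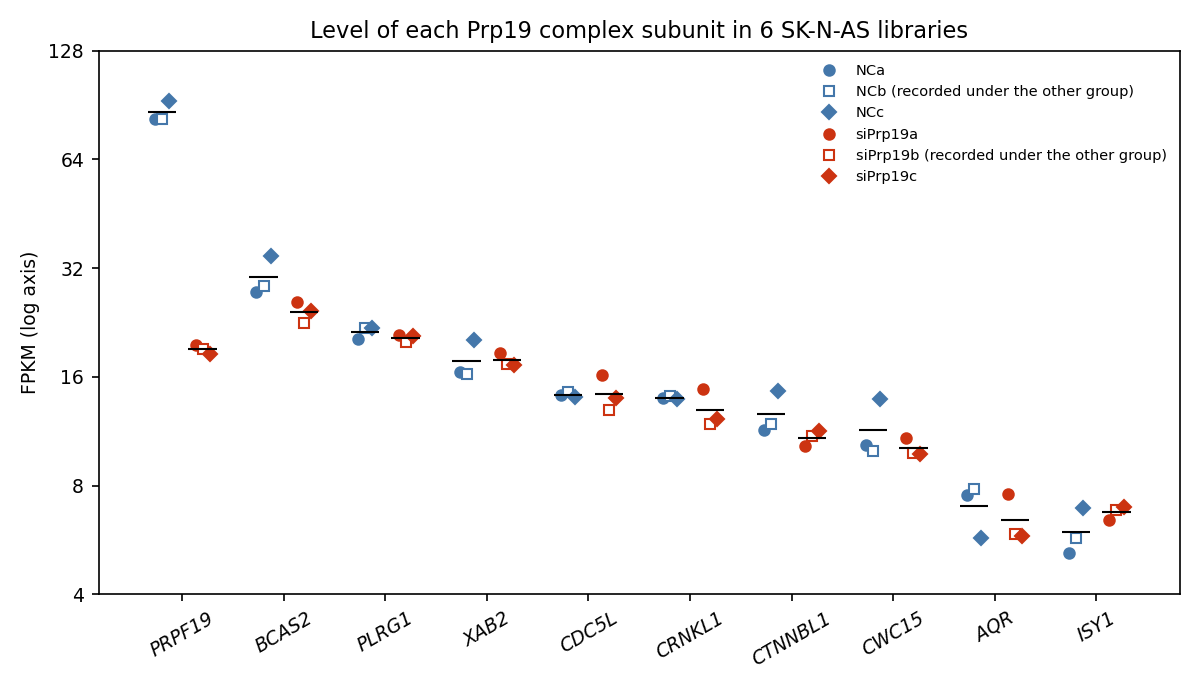
FPKM on a log axis for the 10 subunits, ordered by their mean in NC, with one symbol per library, blue for NC columns and red for siPrp19 columns; open squares are NCb and siPrp19b, recorded under the other group, and black lines are means of 3. *PRPF19* drops from 83.0 to 93.0 FPKM in NC to 18.5 to 19.6 FPKM in siPrp19, while for the other subunits both groups lie close together or overlap.

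The proteins that bind Prp19 most directly in the core are CDC5L, PLRG1 and BCAS2. *CDC5L* (ENSG00000096401, plus strand of chromosome 6, from 44387525 to 44450426) encodes a Myb-like protein that contacts the RNA core of the spliceosome. Its level was 14.2, 14.6 and 14.0 FPKM in NCa, NCb and NCc and 16.2, 13.0 and 14.0 FPKM in siPrp19a, siPrp19b and siPrp19c. The groups overlapped, with siPrp19a highest and siPrp19b lowest of all 6. *CDC5L* had a log2 fold change of 0.00 (95% interval -0.21 to 0.21, limma adjusted p = 0.984).

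*PLRG1* (ENSG00000171566, minus strand of chromosome 4, from 154535006 to 154550435) encodes a WD40-repeat protein of the core. Its level was 20.4, 21.8 and 21.8 FPKM in the NC columns and 20.9, 20.0 and 20.7 FPKM in the siPrp19 columns. The ranges overlapped and were narrow in both groups. Its log2 fold change of -0.05 had the tightest interval of the 10 subunits, from -0.20 to 0.10 (limma adjusted p = 0.673).

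*BCAS2* (ENSG00000116752, minus strand of chromosome 1, from 114567557 to 114581639), also known as SPF27, encodes a small coiled-coil subunit of the core. Its level was 27.5, 28.6 and 34.5 FPKM in the NC columns and 25.8, 22.5 and 24.3 FPKM in the siPrp19 columns. The groups did not overlap, but the gap between NCa and siPrp19a was small beside the distance of NCc from the other NC columns. The mean was 30.2 ± 3.78 FPKM in NC and 24.2 ± 1.68 FPKM in siPrp19 (SD, n = 3 each). On the log2 scale *BCAS2* differed by -0.30 with a 95% interval of -0.55 to -0.06, and limma gave an adjusted p of 0.130, above the threshold. The counts behind these levels were 482 to 771 reads, because *BCAS2* has the shortest exon length of the 10 subunits, at 1299 bases.

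CTNNBL1 and CWC15 associate with the core. *CTNNBL1* (ENSG00000132792, plus strand of chromosome 20, from 37693955 to 37872129) encodes an armadillo-like protein that binds CDC5L. Its level was 11.4, 11.9 and 14.6 FPKM in the NC columns and 10.3, 11.0 and 11.3 FPKM in the siPrp19 columns. No siPrp19 column reached the lowest NC column, but NCa and siPrp19c almost met. On the log2 scale *CTNNBL1* differed by -0.20 (95% interval -0.43 to 0.04, limma adjusted p = 0.292).

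*CWC15* (ENSG00000150316, minus strand of chromosome 11, from 94962622 to 94973612) encodes a small protein of the active spliceosome. Its level was 10.4, 9.98 and 13.9 FPKM in the NC columns and 10.8, 9.84 and 9.76 FPKM in the siPrp19 columns. NCc stood above the rest, and the other 5 libraries could not be separated by group. Its log2 fold change was -0.15 (95% interval -0.44 to 0.15, limma adjusted p = 0.537).

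In all, the groups did not overlap for 3 of the 10 subunits, *PRPF19*, *BCAS2* and *CTNNBL1*, each lower in the siPrp19 columns. Of all tested genes, 31.3% did not overlap, 18.1% being lower and 13.2% higher. With 4 libraries the same 3 subunits did not overlap, again lower, beside 44.0% of all genes (24.8% lower and 19.2% higher). As recorded, 0 of the 10 subunits were free of overlap, beside 4.62% of all genes (2.51% lower and 2.11% higher).

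XAB2, AQR and ISY1 belong to the intron-binding complex, which enters the spliceosome together with the Prp19 complex. *XAB2* (ENSG00000076924, minus strand of chromosome 19, from 7619525 to 7629565) encodes a scaffold of helical repeats that is also known from transcription-coupled DNA repair. Its level was 16.4, 16.3 and 20.3 FPKM in the NC columns and 18.7, 17.3 and 17.3 FPKM in the siPrp19 columns. The siPrp19 columns lay inside the range of the NC columns. Its log2 fold change was 0.01 (95% interval -0.22 to 0.24, limma adjusted p = 0.949).

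*AQR* (ENSG00000021776, minus strand of chromosome 15, from 34851782 to 34969839) encodes an RNA helicase that binds the intron upstream of the branch point. Its level was 7.53, 7.80 and 5.74 FPKM in the NC columns and 7.60, 5.88 and 5.81 FPKM in the siPrp19 columns. The libraries fell into a higher set (NCa, NCb, siPrp19a) and a lower set (NCc, siPrp19b, siPrp19c), and each set held columns of both groups. The log2 fold change was -0.11 (95% interval -0.43 to 0.21, limma adjusted p = 0.683), the widest interval of the 10.

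*ISY1* (ENSG00000240682, minus strand of chromosome 3, from 129127415 to 129161293) encodes a small factor that takes part in the first step of splicing. Its level was 5.19, 5.74 and 6.92 FPKM in the NC columns and 6.42, 6.85 and 6.95 FPKM in the siPrp19 columns. It had the highest log2 fold change of the 10 subunits, at 0.16, but the groups overlapped through NCc (95% interval -0.07 to 0.40, limma adjusted p = 0.384). The level rests on 337 to 599 reads. The readthrough gene *ISY1-RAB43* shares 912 of the 4102 exon bases of *ISY1* (22.2%), and it was listed at 0 in 5 libraries and had 1 read in NCb. Reads from the shared bases cannot be told apart between these genes, so the level of *ISY1* is uncertain to that extent. *ISY1-RAB43* was named after its values were seen.

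*CRNKL1* (ENSG00000101343, minus strand of chromosome 20, from 20034368 to 20056046) encodes a long scaffold of helical repeats that braces the catalytic centre. Its level was 14.0, 14.2 and 13.9 FPKM in the NC columns and 14.8, 11.9 and 12.2 FPKM in the siPrp19 columns. The siPrp19b and siPrp19c columns were below all NC columns and siPrp19a was above them. For *CRNKL1* the log2 fold change was -0.11 (95% interval -0.33 to 0.10, limma adjusted p = 0.510).

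**Figure D2:**
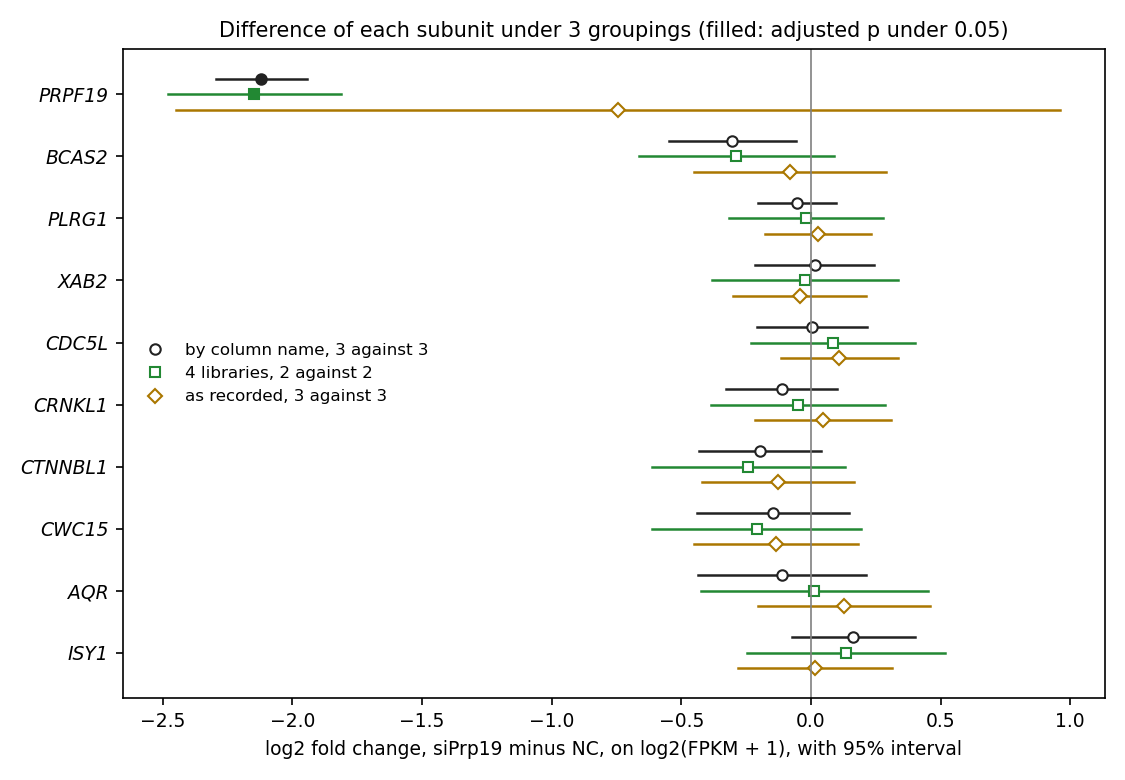
Log2 fold change of each subunit (siPrp19 minus NC on the log2(FPKM + 1) scale, horizontal axis) with its 95% interval from limma, by column name (circles, 3 against 3), with 4 libraries (squares, 2 against 2) and as recorded (diamonds, 3 against 3); filled symbols passed an adjusted p of 0.05. *PRPF19* is filled at -2.12 and -2.15 and open at -0.74, and the symbols of the other 9 subunits are open in each grouping.

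Under the other groupings, the 9 subunits other than *PRPF19* stayed within narrow limits. With 4 libraries their log2 fold changes ran from -0.29 for *BCAS2* to 0.13 for *ISY1*. As recorded they ran from -0.13 for *CWC15* to 0.13 for *AQR*, all with a limma adjusted p of 1.00. The direction was the same in all 3 groupings for *BCAS2*, *CTNNBL1* and *CWC15*, which were below 0, and for *ISY1* and *CDC5L*, which were above 0, with all libraries of each grouping. With single libraries left out, the direction turned for *CDC5L* by column name and with 4 libraries, for *ISY1* with 4 libraries and as recorded, and for *BCAS2* and *CWC15* as recorded. It was not the same for *PLRG1*, *XAB2*, *CRNKL1* and *AQR*. These 3 groupings share libraries, so they are not independent of each other.

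The size of these differences was compared with those of all genes tested. The log2 fold change of *PRPF19* was larger in size than that of 99.99% of the genes, and only 1 gene fell further. For *BCAS2* the share of genes with a smaller change was 80.8%, for *CTNNBL1* 64.0% and for *ISY1* 56.2%. For *CDC5L* it was 1.65% and for *XAB2* 5.44%, so both were among the least changed genes by this measure in the comparison by column name. With 4 libraries it was 28.6% for *CDC5L* and 7.63% for *XAB2*, and as recorded 58.2% and 26.0%.

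**Figure D3:**
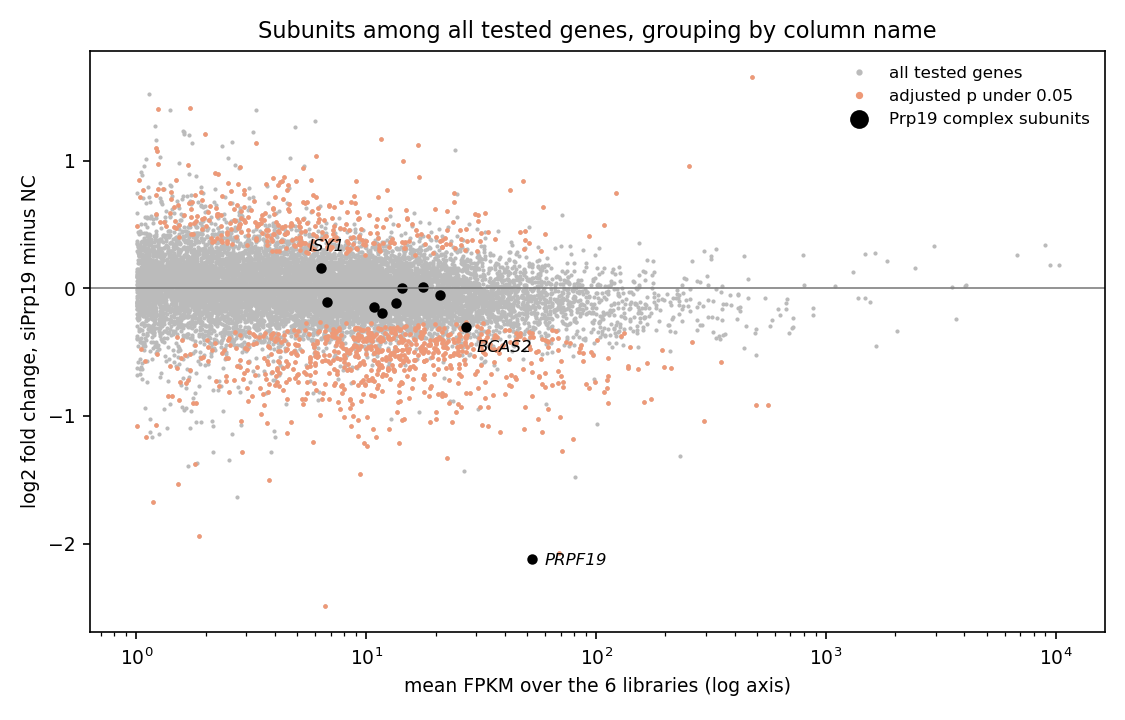
Mean FPKM over the 6 libraries (log axis) against the log2 fold change by column name for 13718 tested genes (grey), those with a limma adjusted p under 0.05 (orange, 1089 genes) and the 10 subunits (black). *PRPF19* lies at -2.12, far below the other 9 subunits, which sit between -0.30 and 0.16 within the band of all genes.

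The relative levels of the subunits were then examined on the FPKM scale. The exon length that gave whole reads merges all annotated exons of a gene. A gene whose transcripts use only part of them is thus listed too low, to an extent not known here. The order, ratios and shares below hold on this scale only. In the NC columns the order by mean was *PRPF19* (86.4 FPKM), *BCAS2* (30.2), *PLRG1* (21.3), *XAB2* (17.7), *CDC5L* (14.3), *CRNKL1* (14.0), *CTNNBL1* (12.6), *CWC15* (11.4), *AQR* (7.03) and *ISY1* (5.95). Neighbours whose libraries overlapped were *CDC5L* with *CRNKL1*, *CRNKL1* with *CTNNBL1*, *CTNNBL1* with *CWC15*, and *AQR* with *ISY1*. The 4 highest were each separated from the next. Thus *PRPF19* had the highest FPKM of the 10 subunits in control cells, at 2.87 ± 0.165 times the level of *BCAS2* and 6.05 ± 0.50 times that of *CDC5L* (SD, n = 3).

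In the siPrp19 columns *BCAS2* came first (24.2 FPKM), then *PLRG1* (20.5) and then *PRPF19* (19.1), which overlapped with *XAB2* (17.8). *CDC5L* (14.4) overlapped with *CRNKL1* (12.9), *CTNNBL1* (10.8) with *CWC15* (10.1) and *ISY1* (6.74) with *AQR* (6.43). Apart from the move of *PRPF19* from rank 1 to rank 3 in each library by column name, the mean order changed only in that *ISY1* and *AQR* traded places, and these had overlapped in both groups. The ratio of *PRPF19* to *BCAS2* was 0.790 ± 0.0510 and to *CDC5L* 1.34 ± 0.132 (SD, n = 3).

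*PRPF19* made up 39.5%, 38.8% and 39.0% of the summed FPKM of the 10 subunits in NCa, NCb and NCc. It made up 13.0%, 13.9% and 13.1% in siPrp19a, siPrp19b and siPrp19c. These shares varied far less within each group than between them, with means of 39.1 ± 0.357% and 13.3 ± 0.491% (SD, n = 3). The sum itself was 221 ± 15.6 FPKM in NC and 143 ± 7.24 FPKM in siPrp19, which is 35.2% lower. Without *PRPF19*, the sum of the other 9 was 135 ± 9.87 FPKM and 124 ± 6.84 FPKM, a difference of 7.83% that was close to the spread between libraries of one group, and no test was made on a sum. This sum was not recomputed under other scalings. With quantile normalization or equal FPKM sums, the mean of *PLRG1* was 20.7 to 21.0 in NC and 20.9 to 21.2 in siPrp19. That of *BCAS2* was 28.9 to 29.7 in NC and 24.6 to 25.0 in siPrp19. With the 4 libraries alone, the share of *PRPF19* was 39.2 ± 0.384% and 13.1 ± 0.102% (SD, n = 2).

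**Figure D4:**
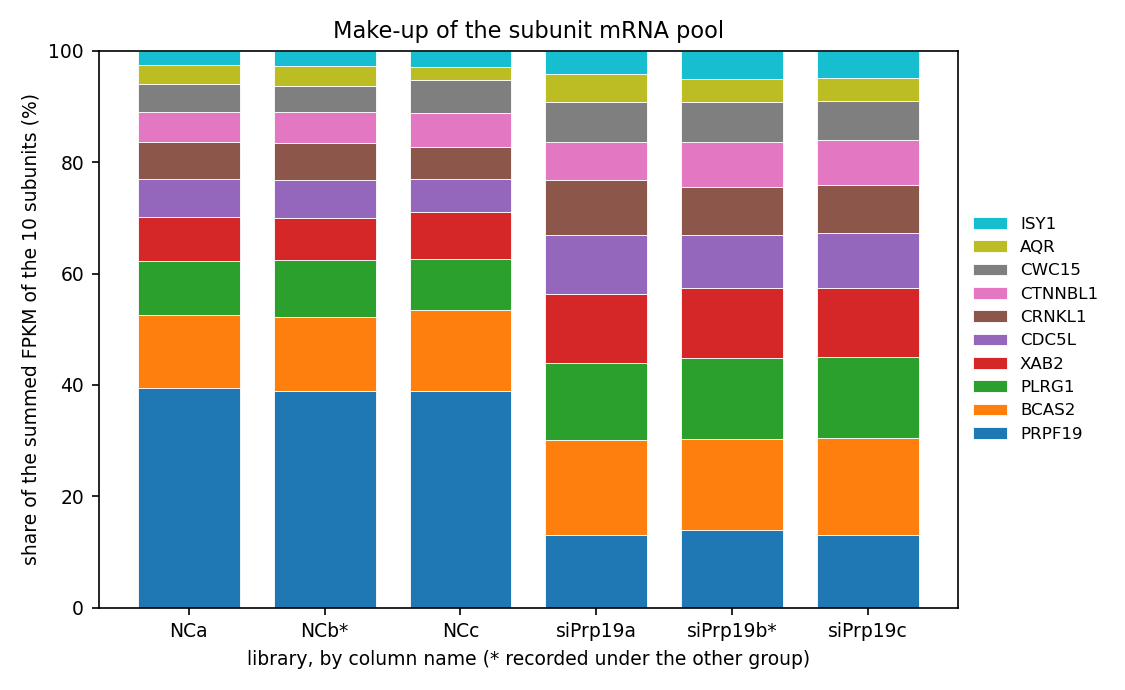
Share of each subunit in the summed FPKM of the 10 (vertical axis, %), one bar per library by column name, with an asterisk on the 2 libraries recorded under the other group. The bottom segment, *PRPF19*, takes 38.8% to 39.5% of each NC bar and 13.0% to 13.9% of each siPrp19 bar, and the other subunits take the rest.

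The scatter between libraries of one group differed between the subunits. In the NC columns the coefficient of variation was 1.17% for *CRNKL1* and 1.84% for *CDC5L*, below the 3.13% and 2.62% that counting alone would give. It was 19.0% for *CWC15* and 15.9% for *AQR*, where counting alone would give 4.44% and 2.58%. Most of this came from NCc, whose level relative to the mean of NCa and NCb was 1.37 for *CWC15*, 1.27 for *ISY1*, 1.25 for *CTNNBL1*, 1.24 for *XAB2*, 1.23 for *BCAS2* and 0.749 for *AQR*. *AQR* has by far the longest exons of the 10, at 13528 bases. Over all tested genes, the median deviation of NCc from the mean of the 6 libraries was 0.12 (log2) in the quartile of genes with the shortest exon length and -0.08 in the longest.

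In the siPrp19 columns, siPrp19a stood apart from the others. Its level relative to the mean of siPrp19b and siPrp19c was 1.30 for *AQR*, 1.23 for *CRNKL1* and 1.21 for *CDC5L*, and 0.923 for *CTNNBL1*. For *PRPF19* it was 1.05, and *PRPF19* varied by 3.00% in siPrp19 against 3.29% from counting alone. Of these 3 columns, siPrp19b and siPrp19c are the pair that differed little over all genes. The part of gene length in these differences between libraries was tested only through the correction for length and GC content, under which *PRPF19* kept its call and none of the other 9 gained one.

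Genes that overlap a subunit or carry its name were at or near 0. The divergent transcript *PRPF19-DT* starts 200 bases away from *PRPF19* on the opposite strand and had 3 to 9 reads, at most 0.546 FPKM. *RNU6-1285P*, a U6 pseudogene inside an intron of *PLRG1*, reached 3.61 FPKM in NCa from 6 reads and was listed at 0 in 3 libraries. Neither shares exon bases with the subunit. Each subunit had at least 337 reads in every library.

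Other proteins that work with the Prp19 complex were examined as lists. Of 9 further Prp19-related proteins of the spliceosome, 1 was lower and none higher at an adjusted p of 0.05 by column name, with a median log2 fold change of -0.09. The one that passed was *PPIL1*, a prolyl isomerase that binds the spliceosomal protein SNW1. Its level was 42.0, 41.8 and 44.7 FPKM in the NC columns and 28.4, 32.1 and 30.5 FPKM in the siPrp19 columns, without overlap. It fell by 0.49 on the log2 scale (SE 0.07, limma adjusted p = 0.0126). With 4 libraries its log2 fold change was -0.54 and limma gave an adjusted p of 0.192. Its call was also lost without NCa (adjusted p = 0.0631), without NCb (0.0560), without siPrp19c (0.0665) and with the close pairs of libraries averaged (0.211).

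The ligase activity of Prp19 has known substrates and opponents. It modifies PRPF3, which PRPF8 then recognises in the U4/U6.U5 particle, and the proteases USP4 and USP15 remove such chains. After DNA damage it modifies replication protein A (RPA), which helps to recruit ATRIP. Of 10 such partners, 1 was lower and none higher, with a median of -0.08. This was *RPA1*, the large RPA subunit, at 16.1, 16.8 and 16.7 FPKM in the NC columns and 14.0, 13.5 and 12.4 FPKM in the siPrp19 columns. Its groups did not overlap, and it fell by 0.29 on the log2 scale (SE 0.07, limma adjusted p = 0.0483). This call lay at the threshold and held in 4 of 16 alternatives, with log2 fold changes from -0.33 to -0.22 and adjusted p-values from 0.0354 to 0.416. With 4 libraries the log2 fold change of *RPA1* was -0.29 (limma adjusted p = 0.419), and as recorded it was -0.10 for *RPA1* and -0.24 for *PPIL1* (limma adjusted p = 1.00 for both).

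Of 5 other U-box ligases, none passed in either direction, with a median of 0.09. The highest was *UBOX5*, at 0.17 (2.12 to 2.91 FPKM in NC and 2.65 to 2.98 FPKM in siPrp19, limma adjusted p = 0.390). The lowest was the chaperone-linked ligase *STUB1*, at -0.28 (43.3 to 56.9 FPKM in NC and 31.0 to 44.8 FPKM in siPrp19, limma adjusted p = 0.372). Both overlapped between the groups. The counts of these lists, 1 of 9, 1 of 10 and 0 of 5, stand beside 7.94% of all tested genes called in either direction. That background of 1089 genes itself moved, to 264 genes without NCa, 335 without NCb, 270 without siPrp19b, 253 without siPrp19c and 2 with the close pairs averaged.

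**Figure D5:**
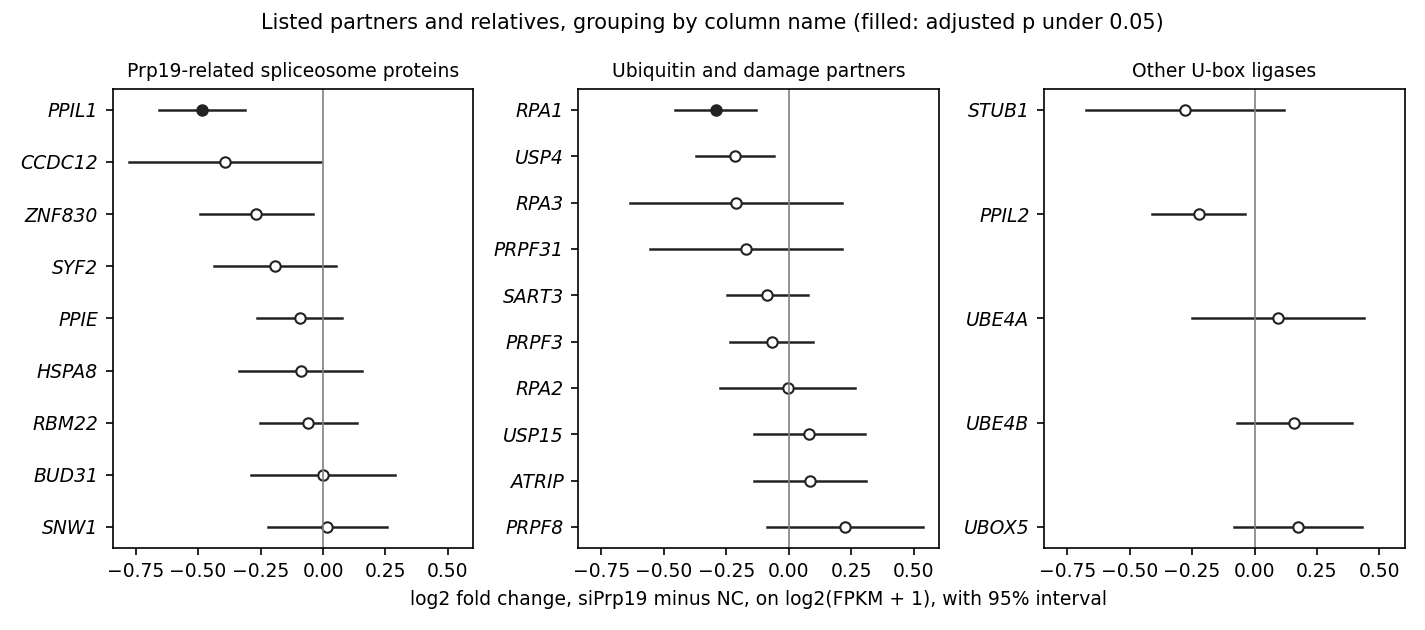
Log2 fold change by column name (siPrp19 minus NC on the log2(FPKM + 1) scale, horizontal axis) with its 95% interval from limma for 9 Prp19-related spliceosome proteins, 10 ubiquitin and damage partners and 5 other U-box ligases; filled circles passed an adjusted p of 0.05. *PPIL1* at -0.49 and *RPA1* at -0.29 are filled, and the other circles are open.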

How the data were processed

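Per the submitters' processing notes, reads were aligned with HISAT2 2.0.5 and counted with featureCounts 1.5.0-p3 on hg38. The annotation, strandedness and FPKM formula were not given in the sources used here. The authors deposited 1 FPKM value per gene and library, and their DESeq2 test on counts was not repeated. Identifiers were matched to GENCODE 29 (58735 of 58735), with current symbols for 58207. FPKM multiplied by exon length and by 1 inferred scale per library gave whole reads for 100% of values (tolerance 0.05 reads). The read totals were 1.01 to 1.04 times these scales in the NC columns and 0.951 to 0.989 times them in the siPrp19 columns. The scaling of the FPKM values thus went with the group by column name. No alternative rescaled the values to the read totals.

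Members and lists were chosen with earlier results of these data known. A listed marker gene is not reported here. Values were transformed to log2(FPKM + 1) and fitted with limma 3.58.1 (R 4.3.3, mean-variance trend) for genes whose FPKM averaged 1 or more, with the Benjamini-Hochberg threshold at 0.05. This scale understates changes of low genes. The p-values measure only the spread between these libraries. The text names the 10 subunits, list genes past the threshold (otherwise the highest and lowest of a list) and overlapping or like-named genes above 0.5 FPKM. *ISY1-RAB43* and *CFAP61* were added because they share exon bases with a subunit.

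Alternatives were a pseudocount of 0.1, no filter, quantile normalization, equal FPKM sums, no trend, voom on the recovered reads, a replicate block and leaving out each library. Averaging of close pairs and a correction for length and GC content (splines of 4 degrees of freedom), alone or with the block, were added after seeing the data. The fit was also run on simulated libraries that were independent of each other. These held no close pairs, so that run does not cover the pairs seen here.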

Additional observations from a re-analysis of the deposited data

How the results depend on the processing

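By column name, the call of *PRPF19* held in all 16 alternatives (log2 fold change -2.18 to -2.01, limma adjusted p 3.2e-06 to 0.0265), and none of the other 9 subunits passed in any. The count of genes past the threshold, 1089, became 512 without a filter, 679 with equal FPKM sums, 1768 with the correction for length and GC content, 2 with close pairs averaged, and 253 (without siPrp19c) to 1354 (without NCc) with 1 library left out, being 264 without NCa, 270 without siPrp19b and 335 without NCb. The share called higher was 32.4%, 46.1% with quantile normalization and 43.3% with the correction. Among Prp19-related proteins the count of 1 became 0 with close pairs averaged, 0 to 1 with 1 library left out, and 2 with the correction and the block together.

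With 4 libraries, the 2 calls became 0 without a filter, 316 with voom and 0 to 70 with 1 library left out, where the lone sample of a group is assumed to vary like the others. *PRPF19* lost its call there without a filter (adjusted p = 0.286), without NCa (0.113), without NCc (0.242) and with the block (0.0894), so the subunit count became 0, and it was 0 to 1 with 1 library left out. As recorded, no alternative called a gene.

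For libraries with the same number in the column name, the correlations of deviations were 0.13, -0.05 and 0.20. Libraries with different numbers gave -0.20 to 0.13. As NCa is close to NCb and siPrp19b to siPrp19c, this check could hardly show a pairing. Whether the libraries are paired is not settled. With the replicate block 928 genes passed by column name, 0 with 4 libraries (2868 at an unadjusted p under 0.05) and 0 as recorded, and the log2 fold change of *PRPF19* was unchanged.

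Small differences turned sign. By column name, *PLRG1* was 0.035 with quantile normalization and 0.025 with the correction, alone or with the block, *XAB2* was -0.018 with close pairs averaged and -0.0056 with the correction, alone or with the block, and *AQR* was 0.0050 with close pairs averaged. With 4 libraries and quantile normalization, *PLRG1* was 0.087, *XAB2* 0.074 and *CRNKL1* 0.024, and with equal sums *PLRG1* was 0.030 and *XAB2* 0.026. As recorded with quantile normalization, *XAB2* was 0.0064. With 1 library left out by column name, *CDC5L* ranged from -0.081 to 0.072 and *XAB2* from -0.039 to 0.11. With 4 libraries the ranges were -0.16 to 0.18 for *AQR*, -0.017 to 0.19 for *CDC5L*, -0.18 to 0.080 for *CRNKL1*, -0.043 to 0.31 for *ISY1*, -0.067 to 0.029 for *PLRG1* and -0.17 to 0.12 for *XAB2*. As recorded they were -0.23 to 0.073 for *BCAS2*, -0.025 to 0.12 for *CRNKL1*, -0.22 to 0.0090 for *CWC15*, -0.10 to 0.079 for *ISY1* and -0.10 to 0.040 for *XAB2*. The cause was not tested.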
